A study of Homo sapiens with 6 samples.

Results

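The 9 genes described here are *NFE2L2*, which encodes the transcription factor NRF2, and 8 antioxidant genes that NRF2 is known to activate: *HMOX1*, *NQO1*, *SLC7A11*, *GCLC*, *GCLM*, *TXN*, *TXNRD1*, and *SRXN1*. They were taken by gene symbol from the 60623 genes of the deposited table, and each symbol matched 1 gene. The samples were TC28a2 cells, an immortalized human chondrocyte line, treated for 24 hours with 2 μM mocetinostat, an inhibitor of class I histone deacetylases (HDACs), or with the solvent DMSO alone. There were 3 samples per condition, described by the study as independent experiments. The comparison asks which genes mocetinostat changed in these cells.

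NRF2 is held at a low level in unstressed cells by KEAP1, an adaptor that brings it to the CUL3-RBX1 ubiquitin ligase for degradation. When oxidants or electrophiles modify KEAP1, NRF2 accumulates without any need for more of its mRNA, pairs with a small MAF protein, and binds antioxidant response elements (AREs) in its target genes, where BACH1 can compete with it. The targets import cystine, make glutathione, reduce thioredoxin, peroxiredoxins, and quinones, and break down heme, and oxidative stress is a known feature of osteoarthritic cartilage.

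The promoter windows of the members, which run from 250 bases before to 50 bases after a transcription start, are shown for the genes in which an ARE-like match lay beside a change in expression. RefSeq windows (GRCh38.p14) were found for 7 of the 9 members and not for *HMOX1* and *SLC7A11*. The letters TGACNNNGC, the ARE core, were searched on both strands. These letters include the AP-1 site TGACTCA when it is followed by GC, but none of the matches below holds that site. The letters were found in 3 of the 9 windows of these members (33.3%), 1 of *GCLM* and both of *TXNRD1*, and in 13.3% of the 35116 windows of all genes. Counted by gene, they were found in 28.6% of the 7 members and 16.1% of all genes, and they were in 17.3% of the windows of the related lists described below. The window of *KEAP1* was added after its values were seen, because its mRNA fell and its window holds the same 9 letters as that of *GCLM*. Windows of related genes that did not pass the test described below held the core too, such as *GSTO1* and *ABCC4*, named after their values were seen. Each match is written so that the core reads forward, with 8 flanking bases on each side and the core in capitals.
*GCLM*, chr1:93909456-93909464: gaagacaaTGACTAAGCagaaatcg
*TXNRD1*, upstream start, chr12:104215680-104215688: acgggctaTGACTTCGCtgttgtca
*TXNRD1*, upstream start, chr12:104215771-104215779: gtgggaacTGACGGAGCcgaaggac
*TXNRD1*, downstream start, chr12:104286930-104286938: agtcagaaTGACAAAGCagaaatcc
*KEAP1*, chr19:10502817-10502825: ttttattgTGACACGGCgggcgccc
*KEAP1*, chr19:10502794-10502802: ggtcaccaTGACTAAGCagagccgg

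The match of *GCLM* was centred 30 bases before the start, on the strand opposite to the gene, and that of the downstream *TXNRD1* start was centred 98 bases before it, also on the opposite strand. The cores of *GCLM* and of the second *KEAP1* match were the same 9 letters, TGACTAAGC. A match of letters is a description and was not tested as a binding site. The 250 bases before the start of *GCLM* (minus strand, chr1:93909431-93909680) and before the downstream *TXNRD1* start (plus strand, chr12:104286782-104287031) are given in the direction of the gene, with the core in capitals as it reads on that strand.
*GCLM*: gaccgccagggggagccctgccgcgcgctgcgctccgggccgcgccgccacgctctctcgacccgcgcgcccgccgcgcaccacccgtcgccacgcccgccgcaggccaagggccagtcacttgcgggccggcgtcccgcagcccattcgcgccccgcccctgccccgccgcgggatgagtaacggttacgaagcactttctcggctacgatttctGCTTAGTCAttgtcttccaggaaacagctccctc
*TXNRD1*: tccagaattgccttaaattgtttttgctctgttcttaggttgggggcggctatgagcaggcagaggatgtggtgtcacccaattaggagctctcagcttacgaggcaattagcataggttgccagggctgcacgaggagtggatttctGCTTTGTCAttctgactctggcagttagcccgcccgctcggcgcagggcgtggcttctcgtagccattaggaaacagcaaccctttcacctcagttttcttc

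The deposited values were raw read counts, with totals from 4873426 to 11031132 per DMSO-treated sample and from 1619344 to 5089542 per mocetinostat-treated sample. Levels are given as CPM (counts scaled by TMM-normalized library size in edgeR), and differences as log2 fold changes of mocetinostat against DMSO from edgeR's quasi-likelihood test, with p adjusted over the 13966 genes tested. A gene is said to have risen or fallen at an adjusted p under 0.05, and is called upregulated or downregulated when its log2 fold change was also over 1 or under -1, the thresholds of the study. The median log2 fold change of all genes was -0.0021 on this scale. With *GAPDH* as the scaling reference this median was 0.53, because *GAPDH* itself fell, with a log2 fold change of -0.53. Differences between genes within a library do not depend on that choice. Of the 10 chondrocyte markers examined, 9 had counts and *CNMD* had 0 in every sample. Their summed level was 116 to 141 CPM with DMSO and 258 to 299 CPM with mocetinostat. Most of it was *SOX9*, at a mean of 106 CPM with DMSO and 180 CPM with mocetinostat. The next highest mean was 5.30 CPM (*HAPLN1*) with DMSO and 33.3 CPM (*ACAN*) with mocetinostat. The summed level was 4152 to 5054 and 4118 to 4486 CPM for 6 fibroblast markers. Most of that sum was *COL1A1*, which fell by 0.21, while *COL1A2* (1.73), *LUM* (2.71), *PDGFRA* (3.82), and *THY1* (0.75) rose and *DCN* was not tested. For 5 immune markers it was 1.47 to 2.50 and 5.35 to 11.2 CPM, of which *CD14* went from a mean of 0.915 to 7.46 CPM, while *PTPRC* was at 0.685 and 0.611 CPM, *CD68* had at most 2 counts with DMSO and 0 with mocetinostat, and *CD3E* had 0 throughout. For 4 epithelial markers it was 0.208 to 0.884 and 23.6 to 35.3 CPM (*KRT5* at 0 with DMSO). Fewer cells of a kind and less RNA per cell cannot be told apart in such bulk samples, and the part of these marker changes in the results was not tested.

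The 9 members did not move together. *HMOX1* and *TXNRD1* were called upregulated, *GCLC*, *GCLM*, and *SLC7A11* rose by less than the fold threshold, *NQO1* fell (though not under *GAPDH* scaling), and *NFE2L2* and *TXN* did not pass the test. *SRXN1* had too few counts for the test. Over all genes tested, 20.2% were called upregulated and 8.18% downregulated, and 32.9% rose and 31.4% fell at an adjusted p under 0.05 alone, 64.3% in either direction. Of the 8 members tested, 2 were called upregulated and 0 downregulated, and 5 rose and 1 fell. The median log2 fold change of these 8 was 0.40. Their counts were at least 89 in every sample, so that none of the 8 passed the filter through only 1 condition. In 5 of the 8 the conditions were fully separated, with 4 higher and 1 lower after mocetinostat treatment, where 33.7% of all genes were wholly higher and 32.8% wholly lower, 66.5% in either direction. At this sample size the exact permutation test of one value (two-sided) has a floor of p = 0.1.

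**Figure D1:**
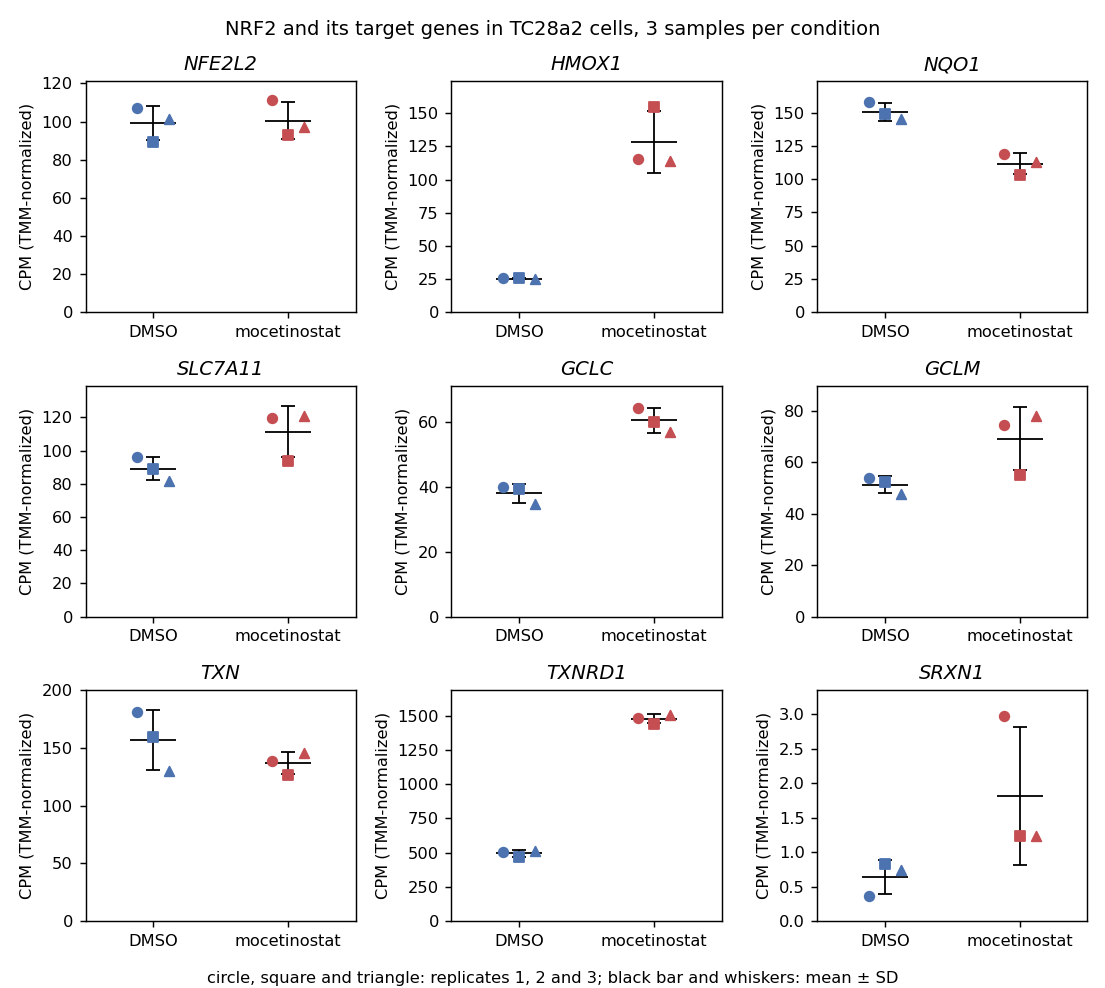
TMM-normalized CPM (linear axis from 0) of the 9 members in each sample, by condition; circles, squares, and triangles are replicates 1, 2, and 3, and the black bar and whiskers are the mean ± SD. *HMOX1* and *TXNRD1* are far above their DMSO levels in every mocetinostat-treated sample, *NQO1* is below, and *NFE2L2* overlaps.

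**Figure D2:**
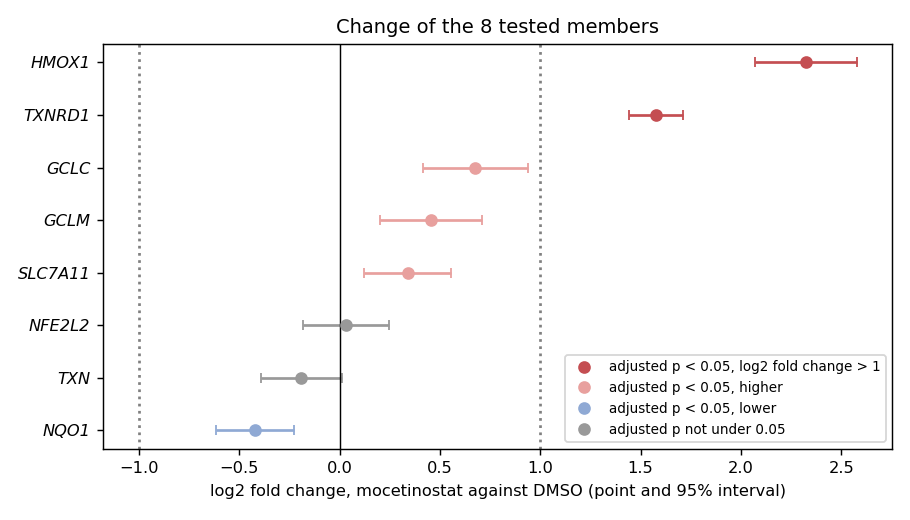
Log2 fold change of the 8 tested members (point) with its 95% interval from the edgeR fit; dotted lines mark -1 and 1. The values run from -0.42 for *NQO1* to 2.32 for *HMOX1*.

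The mRNA of the transcription factor itself did not pass the test. *NFE2L2* (ENSG00000116044, chromosome 2 of GRCh38 in GENCODE 44, as for all gene positions here, 177218667 to 177392756, minus strand) was at 107, 89.3, and 101 CPM in DMSO replicates 1, 2, and 3 and at 111, 93.0, and 97.4 CPM in mocetinostat replicates 1, 2, and 3. The 2 ranges lay on top of each other. The mean was 99.3 ± 9.04 CPM (SD, n = 3) with DMSO and 101 ± 9.53 CPM (SD, n = 3) with mocetinostat, and the log2 fold change was 0.03 (95% interval -0.18 to 0.24, adjusted p = 0.823 from the edgeR test). The interval leaves room for a change of either sign, but for none that reaches the fold threshold. Under *GAPDH* scaling it stood at 0.56 (edgeR adjusted p = 4.35e-05), 0.03 above the median of all genes under that scaling.

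Of the genes that control NRF2, *KEAP1*, *RBX1*, and *MAFG* fell, *MAFF* and *MAFK* rose, and *BACH1* did not pass the test. *KEAP1*, the repressor that hands NRF2 to the ubiquitin ligase (ENSG00000079999, chromosome 19, 10486125 to 10503558), had counts of 872, 352, and 535 in the DMSO replicates and of 137, 48, and 58 in the mocetinostat replicates. Every mocetinostat-treated sample was below every DMSO-treated sample after normalization, from 77.0 ± 3.21 to 27.0 ± 2.86 CPM (SD, n = 3). Its log2 fold change was -1.52 ± 0.14 (SE, edgeR adjusted p = 7.55e-16), and it was called downregulated. *RBX1*, the RING subunit of the same ligase, was called downregulated too, at -1.45 ± 0.18 (SE). The scaffold *CUL3*, named after its values were seen, fell by 0.40. Under *GAPDH* scaling *KEAP1* and *RBX1* stayed lower, at -0.99 and -0.91, and lost their calls, while *CUL3* was at 0.14. The repressor *BACH1* was at 140 ± 16.8 and 127 ± 8.24 CPM (SD, n = 3), with a log2 fold change of -0.13 (adjusted p = 0.251 from edgeR), which became 0.40 under *GAPDH* scaling.

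Of the 13 regulators and partners examined, all 13 were tested, 3 were called upregulated and 2 downregulated, 2 others rose, 3 others fell, and 3 did not pass the test. The share called upregulated, 23.1%, was near the 20.2% of all genes, 8.18% of which were called downregulated. The median log2 fold change was 0.10. The 3 called upregulated were *BACH2* (1.77), a relative of *BACH1*, *NFE2L3* (1.65), a relative of NRF2, and *MAFF* (1.44), a small MAF partner. The other small MAF genes split, with *MAFK* rising by 0.84 and *MAFG* falling by 0.39, which became 0.15 under *GAPDH* scaling. *SQSTM1*, which encodes the autophagy receptor p62 that can bind KEAP1 and was named after its values were seen, rose by 0.78. Scaled to *GAPDH*, 5 of the 13 were called upregulated, *MAFK* (1.37) and *SQSTM1* (1.31) with them, and 0 downregulated.

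Heme oxygenase 1, which opens the heme ring and releases iron, carbon monoxide, and biliverdin, had the highest log2 fold change of the members. *HMOX1* (ENSG00000100292, chromosome 22, 35380361 to 35394214, plus strand) was at 25.4, 25.6, and 24.8 CPM in the DMSO replicates, close together, and at 116, 155, and 114 CPM in the mocetinostat replicates. Mocetinostat replicate 2 was the highest, and the lowest mocetinostat-treated sample was still far above every DMSO-treated sample. The mean went from 25.3 ± 0.448 to 128 ± 23.1 CPM (SD, n = 3), a 5.0-fold rise. The log2 fold change was 2.32 ± 0.13 (SE, edgeR adjusted p = 1.30e-26), above that of 90.6% of all genes tested. It lay between 2.07 and 2.85 under the 15 alternatives and was called upregulated in all 15.

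Genes of heme and iron handling were examined beside it, which make, export, or break down heme, reduce biliverdin, or carry and store iron. Of the 11 in this list, all tested, 4 were called upregulated and 0 downregulated, 3 others rose, 2 fell, and 2 did not pass the test. The median log2 fold change was 0.56, and 36.4% were called upregulated, against 20.2% of all genes. Scaled to *GAPDH*, 7 genes of the list were called upregulated. Genes that reached the expression cutoff of 2.01 CPM in all samples of 1 condition but not of the other passed the filter through the condition where they are high, so they are named as such and the calls of a list are also counted without them. In this list *SLC40A1* was such a gene, and 3 of the other 10 genes were called. *FTH1*, the ferritin heavy chain that stores iron, had counts of 10936, 5415, and 7555 in the DMSO replicates and of 12979, 4470, and 6417 in the mocetinostat replicates, or 1077 ± 76.1 and 2668 ± 98.8 CPM (SD, n = 3). Its log2 fold change was 1.31 ± 0.06 (SE, edgeR adjusted p = 1.00e-29). The light chain *FTL*, named after its values were seen, fell by 0.21 and was at 0.32 under *GAPDH* scaling, so that its direction depends on the scaling. *SLC40A1*, the iron exporter ferroportin, had counts of 22, 6, and 7 in the DMSO replicates and of 127, 40, and 37 in the mocetinostat replicates, a ratio of summed rates of 14.5 (95% exact Poisson interval 10.1 to 21.5). *BLVRB*, a biliverdin reductase, rose by 1.67, and *ALAS1*, the first enzyme of heme synthesis, by 1.02, a call that was lost with DESeq2 (0.99), with no expression filter (0.77), with glmTreat (a test against the fold threshold), without DMSO replicate 1 (0.95), and without mocetinostat replicate 2 (0.97). The heme exporter *FLVCR1* was the lowest of the list, at -0.80, and with no expression filter it was called downregulated (-1.06). The reads of ferritin genes can be shared with their pseudogenes, and how the counting treated such reads is not given in the sources used here.

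The thioredoxin system was uneven, with the reductase raised and thioredoxin itself not. Thioredoxin reductase 1 is the selenoenzyme that uses NADPH to reduce thioredoxin. *TXNRD1* (ENSG00000198431, chromosome 12, 104215779 to 104350307, plus strand) was at 504, 468, and 511 CPM in the DMSO replicates and at 1484, 1440, and 1504 CPM in the mocetinostat replicates. Within each condition the samples lay close together, and the conditions were far apart. The mean went from 494 ± 23.0 to 1476 ± 33.1 CPM (SD, n = 3), 2.99-fold. The log2 fold change was 1.58 ± 0.07 (SE, edgeR adjusted p = 9.26e-33), and it lay between 1.32 and 2.11 under the 15 alternatives, with the call kept in all 15.

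*TXN*, which encodes thioredoxin (ENSG00000136810, chromosome 9, 110243810 to 110256507, minus strand), was at 181, 160, and 130 CPM with DMSO and at 139, 127, and 146 CPM with mocetinostat. The DMSO-treated samples were the more spread, and the conditions overlapped. The log2 fold change was -0.19 (95% interval -0.39 to 0.01, adjusted p = 0.0895 from edgeR). It moved with 2 libraries. Without DMSO replicate 3 it was -0.34 (adjusted p = 0.00224), without DMSO replicate 1 it was -0.08 (adjusted p = 0.464), and over all alternatives that test against no change the adjusted p lay between 5.48e-05 and 0.464. Under *GAPDH* scaling *TXN* was at 0.35 (adjusted p = 0.00514 from edgeR), which is -0.19 relative to the median of all genes.

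*SRXN1* encodes sulfiredoxin, which repairs overoxidized peroxiredoxins (ENSG00000271303, chromosome 20, 646615 to 653200, minus strand). It held 4, 4, and 5 counts in the DMSO replicates and 15, 2, and 3 counts in the mocetinostat replicates. Of the 20 counts with mocetinostat, 15 were in replicate 1. The ratio of the summed rates was 3.84 (95% exact Poisson interval 1.82 to 8.40, counting error only), and 2.16 (0.604 to 6.46) without that replicate. With no expression filter its adjusted p was 0.220 in edgeR, and it was 0.223 in DESeq2. In GENCODE 44, exons of another gene on the same strand, ENSG00000270299, cover 2292 of the 2528 exon bases of *SRXN1*, or 90.7%, and that gene held 0 counts in every sample. The level of *SRXN1* is therefore known only as the few reads assigned to it by name.

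Of the other 13 thioredoxin system genes, all 13 were tested, 1 was called upregulated and 0 downregulated, 3 others rose, 5 fell, and 4 did not pass the test, with a median log2 fold change of -0.08. Scaled to *GAPDH*, 3 were called upregulated. *SESN3*, a stress-induced sestrin, had counts of 3, 6, and 0 in the DMSO replicates and of 178, 75, and 80 in the mocetinostat replicates. The ratio of its summed rates was 92.4 (95% exact Poisson interval 48.1 to 204). The ratio was 218 (74.1 to 1060) without DMSO replicate 2 and 64.7 (33.7 to 143) without DMSO replicate 3. *SESN3* reached the expression cutoff only with mocetinostat, and 0 of the other 12 genes were called. *TXNRD2*, the mitochondrial thioredoxin reductase, was the lowest at -0.89 and so went the other way from *TXNRD1*. It passed the fold threshold without mocetinostat replicate 1 (-1.21), and with no expression filter both it (-1.14) and *PRDX6* (-1.06), named after its values were seen, were called downregulated. *PRDX1*, a cytosolic peroxiredoxin and a substrate of sulfiredoxin, fell by 0.51 and was at 0.028 under *GAPDH* scaling; exons of *MMACHC* on the opposite strand cover 38.5% of its own.

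Both subunits of the enzyme that limits glutathione synthesis rose, by less than the fold threshold. *GCLC*, the catalytic subunit of glutamate-cysteine ligase (ENSG00000001084, chromosome 6, 53497341 to 53616970, minus strand), was at 40.2, 39.6, and 34.8 CPM with DMSO and at 64.6, 60.1, and 57.2 CPM with mocetinostat. The conditions did not overlap. The mean went from 38.2 ± 2.95 to 60.6 ± 3.75 CPM (SD, n = 3), with a log2 fold change of 0.68 ± 0.13 (SE, edgeR adjusted p = 6.98e-06). It had an adjusted p under 0.05 in all 14 alternatives that test against no change, and passed the fold threshold only under *GAPDH* scaling, at 1.21.

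*GCLM*, the modifier subunit (ENSG00000023909, chromosome 1, 93885199 to 93909456, minus strand), was at 53.9, 52.5, and 47.6 CPM with DMSO and at 74.5, 55.2, and 77.9 CPM with mocetinostat. Mocetinostat replicate 2 was close to the DMSO-treated samples, and the conditions did not overlap. The log2 fold change was 0.46 ± 0.13 (SE, edgeR adjusted p = 0.00134). Its adjusted p was under 0.05 in 13 of the 14 alternatives, the exception being the fit with no expression filter, at 0.20 (adjusted p = 0.292).

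*SLC7A11* encodes xCT, the cystine-importing chain of the cystine/glutamate exchanger (ENSG00000151012, chromosome 4, 138164097 to 138242349, minus strand). It was at 95.9, 89.1, and 81.9 CPM with DMSO and at 120, 93.6, and 121 CPM with mocetinostat. Mocetinostat replicate 2 lay inside the DMSO range and the other mocetinostat-treated samples above it. The log2 fold change was 0.34 ± 0.11 (SE, edgeR adjusted p = 0.00482). This rise was the least firm of the 5. The adjusted p was 0.0538 with DESeq2, 0.0809 without mocetinostat replicate 1, and 0.611 with no expression filter, and under 0.05 in the other 11 alternatives. Its partner chain *SLC3A2* had a log2 fold change of 0.08 (adjusted p = 0.431 from edgeR).

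The rest of the glutathione system held calls in both directions. Its upregulated share, 20.8%, was near the 20.2% of all genes, 8.18% of which were called downregulated. Of 35 genes, 24 were tested, 5 were called upregulated and 2 downregulated, 4 others rose, 3 others fell, and 10 did not pass the test. The median log2 fold change was 0.25. The genes called upregulated were *GSTM3*, *GSTA4* (1.73), and *MGST3* (1.74), which are glutathione transferases, *GLRX* (2.17), glutaredoxin, and *GPX3* (1.78), the secreted glutathione peroxidase. *GSTM3* had only 17, 3, and 12 counts in the DMSO replicates, and its ratio of summed rates was 8.97 (95% exact Poisson interval 6.02 to 13.7). Its reads can be shared with related family members. The 2 called downregulated were *GPX7* and *GPX8* (-1.67), peroxidases of the endoplasmic reticulum. *GPX8* went from 71.2 ± 4.99 to 23.1 ± 2.91 CPM (SD, n = 3), and *GPX7* held 7, 0, and 3 counts with mocetinostat against 61, 26, and 37 with DMSO, a ratio of 0.201 (0.0942 to 0.383). *GSTM3* and *GSTA4* passed the expression filter through the mocetinostat samples and *GPX7* through the DMSO samples, and of the other 21 genes 3 were called upregulated and 1 downregulated. Both peroxidases kept their calls under *GAPDH* scaling, where 9 genes of the list were called upregulated in place of 5. *GSR*, which regenerates reduced glutathione and was named after its values were seen, rose from 79.9 ± 8.0 to 148 ± 18.8 CPM (SD, n = 3), with a log2 fold change of 0.87, which passed the fold threshold with thinned libraries (1.04).

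*NQO1*, the quinone reductase that is widely used as a readout of NRF2 activity, fell where *HMOX1* rose, except under *GAPDH* scaling. *NQO1* (ENSG00000181019, chromosome 16, 69706996 to 69726668, minus strand) was at 158, 149, and 145 CPM with DMSO and at 119, 104, and 113 CPM with mocetinostat. Every mocetinostat-treated sample was below every DMSO-treated sample. The mean went from 151 ± 6.77 to 112 ± 7.96 CPM (SD, n = 3), with a log2 fold change of -0.42 ± 0.10 (SE, edgeR adjusted p = 0.000131). The adjusted p was under 0.05 in 13 of the 14 alternatives that test against no change. The exception was *GAPDH* scaling, where the value was 0.11 (adjusted p = 0.355), which is -0.42 relative to the median of all genes. Exons of a long noncoding RNA on the opposite strand, ENSG00000261602, cover 22.8% of the *NQO1* exons, and that RNA held at most 1 count in a sample.

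Among 23 other genes that NRF2 is known to activate, 21 were tested, 9 were called upregulated and 0 downregulated, 5 others rose, 1 fell, and 6 did not pass the test. Of the 9, 3 (*AKR1C1*, *AKR1C2*, and *AKR1C3*) reached the expression cutoff only with mocetinostat. Of the other 18, 6 were called upregulated, and their median log2 fold change was 0.49 (0.78 for all 21), where 20.2% of all genes were called upregulated. The count of 9 fell to 5 with thinned libraries and to 5 with glmTreat. With thinning only *OSGIN1* was tested and lost its call, and the other genes lost no longer passed the expression filter. The carbonyl and alkenal reductases *CBR1* (1.05) and *PTGR1* (1.14), the nuclear protein pirin encoded by *PIR* (1.39), and the transporter *ABCC3* (1.48) were among those called, as was *OSGIN1* (1.02), which was named after its values were seen. The *OSGIN1* call was lost with DESeq2 (0.96), with thinned libraries (0.92), without DMSO replicate 1 (0.90) or 2 (0.98), and without mocetinostat replicate 1 (0.86). With no expression filter the values of *OSGIN1* (0.78), *PTGR1* (0.89), and *CBR1* (0.80) were under the fold threshold, and with glmTreat these 3 and *PIR* lost their calls. *CBR1* missed the fold threshold without DMSO replicate 1 (0.99) and without mocetinostat replicate 1 (0.95). *AKR1C3* had counts of 2, 3, and 0 in the DMSO replicates and of 50, 17, and 14 in the mocetinostat replicates, and the ratio of its summed rates was 40.4 (95% exact Poisson interval 16.6 to 128). It was 79.7 (21.3 to 669) without DMSO replicate 2 and 28.3 (11.6 to 89.6) without DMSO replicate 3. *AKR1C1* had counts of 10, 0, and 2 with DMSO and a ratio of 10.6 (5.58 to 21.9), which was 32.6 (8.57 to 276) without DMSO replicate 1 and 7.03 (3.07 to 16.4) without mocetinostat replicate 1. *AKR1C2* had counts of 8, 0, and 1 with DMSO and a ratio of 9.98 (4.72 to 23.6). That ratio was 46.0 (7.74 to 1870) without DMSO replicate 1 and 7.87 without DMSO replicate 2 (3.72 to 18.6) or 3 (3.6 to 19.6). The *AKR1C* genes are close paralogs whose reads can be shared. *CBR3* fell by 0.82 and was the lowest of the list. It was called downregulated without DMSO replicate 1 (-1.04), with thinned libraries (-1.16), and with no expression filter (-1.07).

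Enzymes of superoxide and peroxide that are not classical NRF2 targets were examined as well. Of 12 genes, 5 were tested, 2 were called upregulated (40%, against 20.2% of all genes), and 1 other rose. *SOD2*, the mitochondrial superoxide dismutase, went from 77.2 ± 6.32 to 208 ± 8.71 CPM (SD, n = 3), with a log2 fold change of 1.42 ± 0.10 (SE, edgeR adjusted p = 1.09e-21); 2 rows of the table carry its symbol and the one with the long-standing identifier, ENSG00000112096, was used. The other call, *NOX5*, rested on 6 to 31 counts per sample and was lost without DMSO replicate 3 (0.65) and without mocetinostat replicate 1 (0.98), 2 (1.10), or 3 (0.98). It was also lost with DESeq2 (adjusted p = 0.219), with no expression filter (0.79), with glmTreat, and with the replicate number as a block (1.10, edgeR adjusted p = 0.0573). It reached the expression cutoff in all samples only with mocetinostat, and 1 of the other 4 tested genes was called. *CYBA*, a subunit of NADPH oxidases, had the lowest value, -0.01. Of 7 genes linked to ATF4, a stress factor that can also activate *SLC7A11*, all were tested. Among these, 1 was called upregulated (14.3%, against 20.2% of all genes), 3 others rose, and 3 did not pass the test. The one called was *ATF3* (1.18), a call lost with no expression filter (0.93) and with glmTreat (adjusted p = 0.205), while *ATF4* itself, named after its values were seen, was at 0.06 and *DDIT3* was the lowest at -0.13. *ASNS*, asparagine synthetase, named after its values were seen, was among those that rose (0.98, edgeR adjusted p = 0.0449). It passed the expression filter through the mocetinostat samples, and 1 of the other 6 genes was called upregulated. Without mocetinostat replicate 3 *ASNS* was called upregulated as well (1.15).

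**Figure D3:**
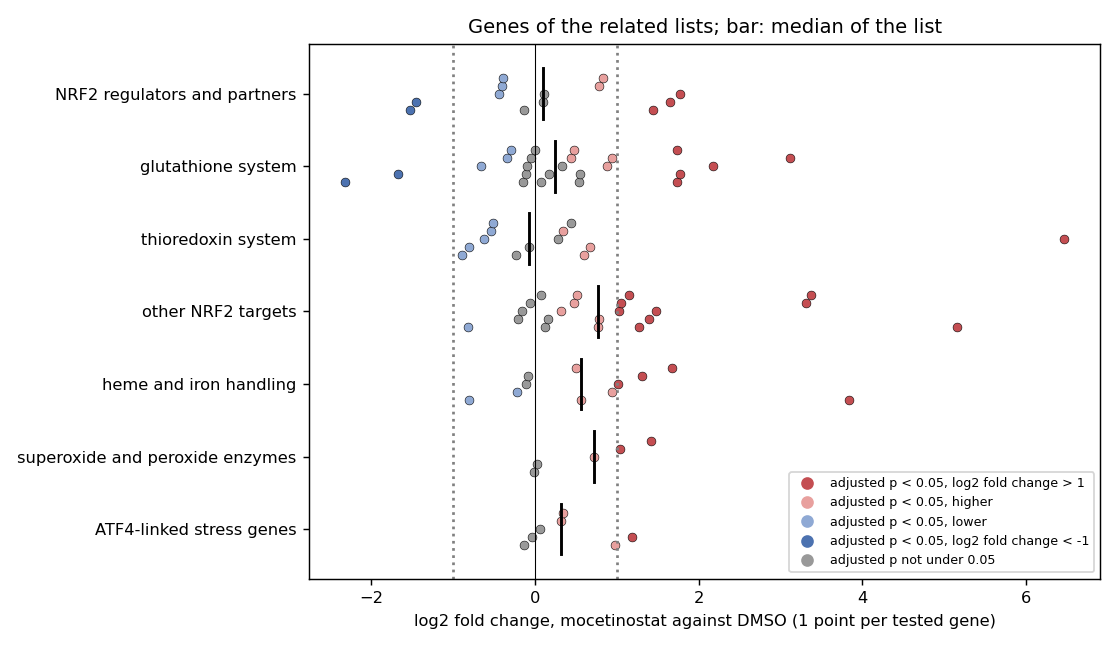
Log2 fold change of each tested gene in the 7 related lists (1 point per gene, coloured by its test), with the median of each list as a black bar and dotted lines at -1 and 1. The other NRF2 targets have a median of 0.78, or 0.49 without the 3 *AKR1C* genes that passed the expression filter through the mocetinostat samples, and the regulators and the glutathione genes spread to both sides of 0.

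Ratios of genes within a library need no scaling between libraries, and 6 pairs were compared. The *TXNRD1* to *TXN* ratio of counts was 2.78, 2.93, and 3.93 in the DMSO replicates and 10.7, 11.3, and 10.3 in the mocetinostat replicates. The conditions did not overlap, and the difference was 1.76 on the log2 scale, or 3.39-fold. The *NFE2L2* to *KEAP1* ratio was 1.36, 1.22, and 1.29 with DMSO and 4.10, 3.13, and 4.05 with mocetinostat, a difference of 1.53 on the log2 scale, or 2.88-fold. These 2 pairs and *SRXN1* to *PRDX1*, which rests on few counts, reached the smallest p that 3 samples against 3 allow (exact two-sided permutation p = 0.1, 0.2 after Benjamini-Hochberg adjustment over the 6 pairs).

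The other pairs overlapped between the conditions. The *GCLM* to *GCLC* ratio was 1.34, 1.33, and 1.37 with DMSO and 1.15, 0.918, and 1.36 with mocetinostat, so that the subunits kept nearly the same ratio in the DMSO-treated samples and varied more after mocetinostat. Its difference was -0.25 on the log2 scale (exact permutation p = 0.3). The difference was 0.25 for *SLC7A11* to *SLC3A2* (exact permutation p = 0.2) and 0.15 for *NFE2L2* to *BACH1* (exact permutation p = 0.5).

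**Figure D4:**
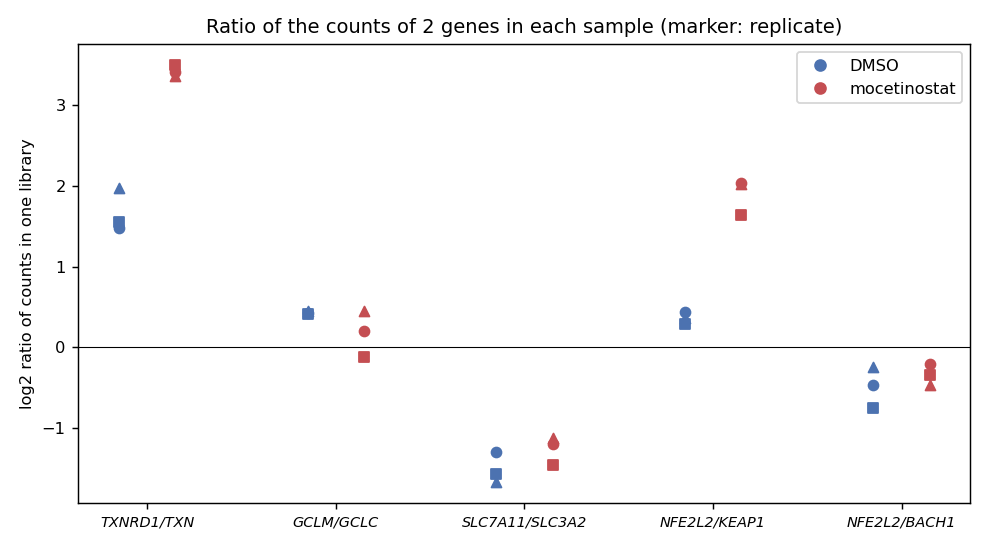
Log2 ratio of the counts of 2 genes in each library for 5 pairs (markers are replicates 1, 2, and 3), with DMSO in blue and mocetinostat in red. The *TXNRD1* to *TXN* and *NFE2L2* to *KEAP1* ratios separate the conditions, and the other 3 overlap.

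Levels were compared between members per kilobase of the MANE Select transcript. With DMSO the order was *TXN* at 213 ± 34.8 CPM per kilobase (SD, n = 3), *TXNRD1* at 128 ± 5.96, *NQO1* at 59.9 ± 2.69, *NFE2L2* at 40.6 ± 3.69, *HMOX1* at 16.3 ± 0.288, *GCLM* at 10.5 ± 0.678, *GCLC* at 10.1 ± 0.780, and *SLC7A11* at 9.23 ± 0.724. Among the last 3, the mean ± SD ranges of *GCLM* and *GCLC* overlapped, as did those of *GCLC* and *SLC7A11*. Such ranges leave out that the genes were read in the same libraries, and the order within each library was not tested. With mocetinostat *TXNRD1* came first, at 382 ± 8.59 CPM per kilobase, before *TXN* at 186 ± 12.9 and *HMOX1* at 82.5 ± 14.9, which had passed *NQO1* at 44.4 ± 3.16 and *NFE2L2* at 41.1 ± 3.89. The ranges of the latter 2 overlapped, as did those of *GCLC* at 16.0 ± 0.990 and *GCLM* at 14.2 ± 2.52. Those of *GCLM* and *SLC7A11* at 11.5 ± 1.59 overlapped too. Reads shared with pseudogenes can move such levels, above all for a short transcript such as that of *TXN*.

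The genes whose pattern over the 6 samples was nearest to that of *NFE2L2*, by the Euclidean distance between log2 CPM values centred on each gene's mean, were *ACTR10* (0.101), *MT-RNR2* (0.102), and *MRPL10* (0.114). Their log2 fold changes were 0.02, 0.0073, and 0.05, and none passed the test.

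Under *GAPDH* scaling the 8 values moved up together, and with no expression filter they moved down together, by about as much as the median of all genes, which was 0.53 and -0.25 over the genes of the main test. *HMOX1* and *TXNRD1* stayed over 1 in every alternative, while *NFE2L2*, *TXN*, and *NQO1* lay on both sides of 0.

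**Figure D5:**
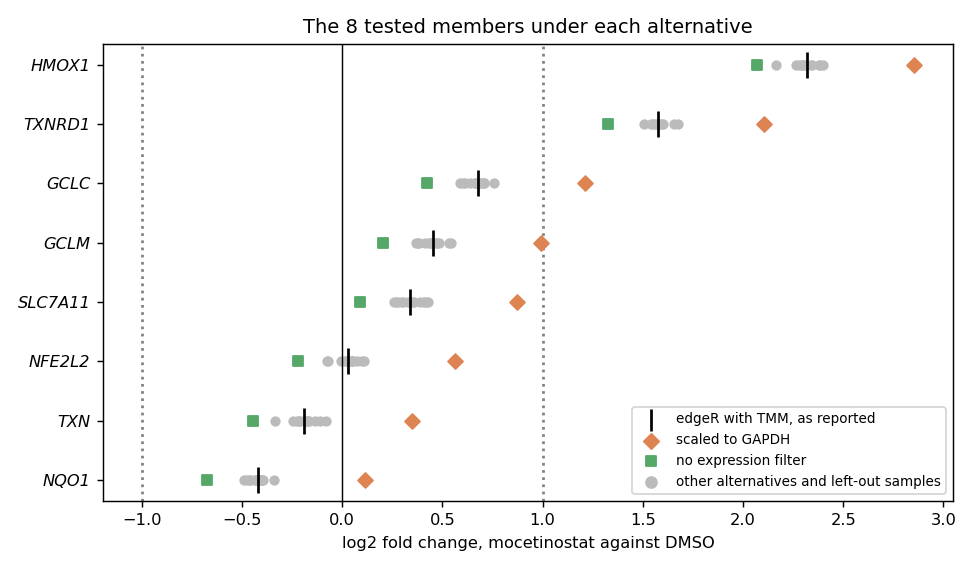
Log2 fold change of the 8 tested members as reported (black bar), scaled to *GAPDH* (diamond), with no expression filter (square), and under the other alternatives (grey), with dotted lines at -1 and 1. *HMOX1* and *TXNRD1* stay right of 1 throughout, and *NQO1* is left of 0 except under *GAPDH* scaling.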

How the data were processed

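RNA-seq was run on 3 samples of TC28a2 cells per condition, DMSO or mocetinostat at 2 μM, 24 hours after treatment. The deposited values are raw read counts per gene. Per the labels and the study's methods, the authors trimmed the reads, removed ribosomal RNA reads, aligned the rest to GRCh38 with STAR 2.6.1d, and assigned them to genes with featureCounts 1.6.4; the strand setting and the handling of multi-mapping and overlapping reads are not given in the sources used here. Reads without molecular identifiers are not independent molecules, so that intervals on counts cover counting error only.

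From the counts, genes were filtered (filterByExpr, minimum count 10), normalized (TMM), and tested with the quasi-likelihood test of edgeR 4.0.16 in R 4.3.3 (log2 fold changes of mocetinostat against DMSO, Benjamini-Hochberg adjustment over 13966 genes; biological coefficient of variation 9.30%). CPM values were computed from the TMM library sizes. Ratios of 2 genes used the counts of a library plus 0.5 for the difference and its test. Of the 60623 identifiers, 99.5% were in GENCODE 44. No pair of replicates agreed within counting noise. In the self-test on simulated data of this comparison, edgeR tested 13611 genes, of which only 200 were set to differ. It gave the right direction for 96% of the 200, with 1 false call. In the deposited data 64.3% of the genes tested had an adjusted p under 0.05. How the scaling and the false calls behave at such a share was not tested. The alternatives were DESeq2 1.42.0, other size factors, library size alone, *GAPDH* scaling, other filters, glmTreat (a test against the fold threshold), leaving out 1 sample at a time, a replicate block, and thinning of every library to 1619344 counts.

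The members and the related gene lists were chosen with earlier results of these data known. Besides the members, the text names up to 8 called genes of each list by smallest p, its highest and lowest value, and the genes of the pairs. It also names *KEAP1*, *BACH1*, the small MAF genes, and the 3 genes nearest to *NFE2L2* with a mean over 10 CPM. Other related genes are said to be chosen after their values were seen. Those named only in the closing section were chosen because an alternative changed their sign or call. The ratios of summed rates with 1 library left out, for *SRXN1* and the other genes of low count, were added after seeing the data. A gene counted in the related lists is not reported here by name.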

Additional observations from a re-analysis of the deposited data

How the results depend on the processing

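The 2 member calls, *HMOX1* and *TXNRD1*, held in all 15 alternatives. The direction of smaller changes depended on the scaling. Scaled to *GAPDH*, 4425 genes were called upregulated and 284 downregulated, against 2827 and 1142 with TMM, and the upregulated share of calls was 94% against 71.2%. In the related lists 42 genes were called upregulated and 2 downregulated in place of 25 and 4, 7 members rose (*NFE2L2* and *TXN* with them) and 0 fell, *GCLC* was at 1.21, and *TXN* was at 0.35. Among genes that had passed the test the sign turned for *NQO1* (0.11), *CUL3* (0.14), *BTRC* (0.10), *MAFG* (0.15), *GPX1* (0.24), *MGST1* (0.19), *TXN2* (0.0062), *PRDX1* (0.028), and *FTL* (0.32), and small negative values that had not passed it turned too, such as that of *BACH1* (0.40). With no expression filter 2120 genes were called downregulated, 8 of them in the related lists, and 3 members rose and 2 fell, in place of 5 and 1. When genes were kept only at 10 or more counts in all samples, which removes those near 0 in 1 condition, 1620 were called upregulated and 704 downregulated. With glmTreat, which tests against the fold threshold, 465 were called downregulated, 2 members rose, and 0 fell. With 1 sample left out, 1 to 2 members fell, the second being *TXN* without DMSO replicate 3, and *TXNRD2* (-1.21, without mocetinostat replicate 1), *CBR3* (-1.04, without DMSO replicate 1), and *GGT7* (1.076) and *ASNS* (1.15, both without mocetinostat replicate 3) became called. The causes were not tested beyond what each alternative does by construction. DESeq2, RLE factors, and library size alone moved none of the member or list counts by over 1.5 times. Thinning moved no member count, but of the other NRF2 targets it left 5 called upregulated in place of 9 and 1 (*CBR3*) downregulated in place of 0, and it left 1 upregulated superoxide gene and 1 downregulated glutathione gene in place of 2 each, while *GSR* (1.04) and *BLVRA* (1.09) became called upregulated. Of the related genes still tested after thinning, only *OSGIN1* lost its call, and the other calls lost were of genes no longer tested. Replicate numbers did not pair the samples (correlations of same-numbered deviations 0.0357, 0.0226, and -0.0393 over 10262 genes), and the replicate block changed no member's call, with *NQO1* at -0.43 and *SLC7A11* at 0.33, but ended that of *NOX5* (1.10). The smallest library, with 1619344 counts, limits genes of low count. *SRXN1* held few counts in the larger DMSO libraries too (4, 4, and 5).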
